A study of Mus musculus with 8 samples.

Results

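The transcripts described here come from 10 genes of the antibody system, out of 24405 genes listed over all libraries. They are the heavy-chain constant-region genes Ighm, Ighd, Igha, Ighg1, Ighg2b, Ighg2c and Ighg3, the light-chain constant-region genes Igkc and Iglc2, and Jchain. The rule takes them by name as rows of the count tables and uses no measured value. All 10 had a row in 5 of the 8 libraries, while among kidney libraries PBMC held 6 of them, TIL 7 and PC 9, and a gene with no row was taken as 0 UMIs (unique molecular identifiers, each marking 1 captured mRNA molecule).

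Single cells of mouse heart, liver and kidney allografts were profiled by Microwell-seq, in which cells settle in small wells together with barcoded beads. The 8 libraries were peripheral blood mononuclear cells (PBMCs) from recipients of the 3 organs, tissue-infiltrating lymphocytes (TILs) of the 3 organs, and parenchymal cells (PCs) of liver and of kidney. All were taken on day 7 after transplantation, with 1 library for each. Per the study's methods, BALB/c organs were placed in C57Bl6/J recipients, mice were 8 weeks old, and no immunosuppression was given in any group, while the labels give male BALB/c mice for all 8. The liver was replaced while heart and kidney grafts were placed elsewhere in the body, each organ had a pair of recipients, and whether a library pools animals is not given in the sources used here. With 1 library per group, no difference between groups could be tested.

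An antibody is built from heavy and light chains, and the constant region of the heavy chain sets its class, or isotype. A naive B cell makes IgM and IgD together from 1 long transcript by alternative splicing, and class switching later joins the same variable region to a downstream gene for IgG or IgA. Each B cell normally uses a kappa or a lambda light chain, and in mice most use kappa. A plasma cell is the end stage of the lineage, with a large share of its mRNA coding for the 1 antibody that it secretes. The J chain, encoded by Jchain, links IgM into pentamers and IgA into dimers, and these can be carried across epithelia, while IgG stays monomeric. C57BL/6 mice carry Ighg2c where BALB/c mice carry the related Ighg2a, and where reads of Ighg2a were counted was not tested.

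The J chain binds through a cysteine near the end of the secreted IgM and IgA heavy chains. The last 30 coding bases of the secreted form, from GENCODE M21 transcripts on the GRCm38 build, show this difference between isotypes, with the codon for that cysteine in capitals, second to last before the stop.
Ighm (chr12:113420867-113420896, minus strand): atgtctgacacaggcggcaccTGCtattga
Igha (chr12:113258768-113258797, minus strand): atgtcagagggagatggcatcTGCtactga
Ighg1 (chr12:113328976-113329005, minus strand): aagagcctctcccactctcctggtaaatga
Ighg2b (chr12:113306389-113306418, minus strand): aagaccatctcccggtctccgggtaaatga
Ighg2c (chr12:113287389-113287418, minus strand): aagaccatctcccggtctctgggtaaatga
Ighg3 (chr12:113359665-113359694, minus strand): aagaacctgtctcgctcccctggtaaatga
The 4 IgG ends hold no such codon, and those of Ighg2b and Ighg2c differ at 1 of 30 bases.

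On the same build the heavy-chain genes lie side by side on the minus strand of chromosome 12, in the order of switching from Ighm (113418558 to 113422730) through Ighd, Ighg3, Ighg1, Ighg2b and Ighg2c to Igha (113254830 to 113260236). Igkc lies on the plus strand of chromosome 6 (70726435 to 70726966), and Jchain on the minus strand of chromosome 5 (88519809 to 88527891). Iglc2 lies on the minus strand of chromosome 16 (19198396 to 19200351) and has near copies there. A 30-base window of coding sequence shows how the lambda genes differ there, by 3 bases in Iglc3 and 6 in Iglc1, with capitals where a base differs from Iglc2.
Iglc2 (chr16:19198641-19198670, minus strand): ggcaacaagttcatggccagcagcttccta
Iglc3 (chr16:19065470-19065499, minus strand): gAcaacaagtAcatggccagcagcttcTta
Iglc1 (chr16:19061857-19061886, minus strand): AAcaacaagtAcatggcTagcagctAcctG
Over 314 coding bases compared, Iglc2 and Iglc3 were identical at 303 (96.5%). Reads that aligned to several places were removed by the authors, so reads from stretches that the copies share were lost or could be split between Iglc1, Iglc2 and Iglc3, and lambda is given below as their sum wherever possible. Gene counts do not separate the membrane from the secreted form of a heavy chain.

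Each library held 10000 barcodes with 3418722 to 19171264 UMIs, and barcodes with at least 500 UMIs were kept as cells, 795 in kidney PC to 10000 in liver PC and 47542 in all. Plasma cells were cells with at least 5 Jchain UMIs and at least 3 UMIs of Mzb1, Derl3 and Xbp1 together. B cells held at least 2 UMIs of Cd79a, Cd79b and Ms4a1 together, and T cells held at least 2 UMIs of Cd3d, Cd3e and Cd3g with none of Cd79a, Cd79b or Ms4a1 and served as the measure of free RNA, since they make no antibody. Cells that passed the plasma-cell gate were left out of the B-cell and T-cell classes. The labels of a pair of libraries go against organ markers. The library labelled heart TIL held Alb, the main hepatocyte protein, at 113 CPM (UMIs per 1000000 UMIs) and Myl7, an atrial myosin light chain, at 0.215 CPM, while the library labelled liver TIL held 0 Alb UMIs and Myl7 at 15.0 CPM. Summed over 5 hepatocyte genes and 6 cardiomyocyte genes, the values were 331 and 23.2 CPM in the first library and 0 and 121 CPM in the second. Each is therefore named below by its label, and every comparison between them has a direction that depends on the labels. Pairs of libraries shared 123 to 617 barcodes, among them those of 11 of 85, 73 of 417 and 6 of 105 plasma cells in the libraries labelled heart TIL and liver TIL and in liver PC. Doublets were not called. At least 1 Cd3 UMI was found in 56, 199 and 64 of these plasma cells.

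Plasma cells were found in number in 3 libraries. They were 417 of 9337 cells (4.47%, exact 95% binomial interval 4.06 to 4.90) in the library labelled liver TIL, 105 of 10000 (1.05%, 0.860 to 1.27) in liver PC and 85 of 9668 (0.879%, 0.703 to 1.09) in the library labelled heart TIL. The PBMC libraries of heart, liver and kidney held 2, 3 and 1, kidney TIL held 1 and kidney PC held 0, and 3 counts of its 795 cells, the limit that a count of 0 allows, would be 0.377%. B cells were instead most frequent in blood of liver and heart recipients, at 8.27% (564 cells) in liver PBMC and 4.66% (362 cells) in heart PBMC, against 98 cells (0.980%) in liver PC and 19 or fewer in every other library. Kidney PBMC, though blood, held 3 B cells (0.262%). Genes outside both gates were checked too. In plasma cells Sdc1, the surface proteoglycan syndecan-1, lay at 86.3, 90.7 and 112 CPM in the libraries labelled heart TIL and liver TIL and in liver PC, against 4.07, 9.21 and 3.22 CPM in their T cells. In B cells Ly6d, a surface protein of the B lineage, lay at 884, 1028 and 627 CPM in heart PBMC, liver PBMC and liver PC, against 85.2, 93.9 and 13.1 CPM in T cells. In blood B cells the summed neutrophil markers reached 161125 CPM (heart) and 96140 CPM (liver), and their part in the values below was not tested. All intervals are exact, at 95%, and cover counting error only, since molecules of 1 cell are not independent and UMIs are not spread evenly over cells.

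Over all barcodes of a library, Ighm, the gene of the first antibody class, was the most even of the heavy-chain genes. It lay at 741 CPM in liver PBMC (4985 UMIs), 691 in the library labelled heart TIL, 589 in liver PC, 434 in heart PBMC, 410 in kidney TIL, 409 in the library labelled liver TIL, 375 in kidney PC and, as the lowest, 267 in kidney PBMC. The 4 values from heart PBMC to kidney PC form a chain in which neighbours have overlapping intervals. Ighd, the gene of the second class of naive B cells, followed blood instead. It lay at 258 CPM in liver PBMC (1734 UMIs) and 141 in heart PBMC (1063 UMIs), then at 22.0 in kidney PBMC, 17.3 in the library labelled liver TIL, 15.4 in liver PC, 11.2 in the library labelled heart TIL, 5.59 in kidney TIL and 3.80 in kidney PC. Blood of heart and liver recipients thus stood above the 6 other libraries for Ighd but not for Ighm.

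Igha, the gene of the mucosal isotype IgA, had the widest range of the 3 heavy-chain genes found in all 8 libraries. It lay at 13590 CPM (116111 UMIs) in the library labelled liver TIL, 970 in the library labelled heart TIL, 743 in liver PC, 225 in kidney PC, 214 in kidney TIL, 105 in kidney PBMC, 103 in heart PBMC and 65.8 in liver PBMC. The first library stood apart from the second by a larger ratio than any other pair of neighbours in this order. In blood single cells held a part of the UMIs, since 1 plasma cell held 175 of the 772 Igha UMIs of heart PBMC (22.7%) and 1 cell held 77 of the 362 of kidney PBMC (21.3%). The rest was spread thinly, with Igha UMIs in 425 and 248 barcodes of these libraries.

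The 4 IgG genes, whose products dominate recall responses in serum, were lower in blood and kidney than in the 3 libraries rich in plasma cells, gene by gene, though Ighg3 in kidney PC and in the library labelled liver TIL had overlapping intervals. Ighg1 lay at 109 CPM in the library labelled heart TIL and 106 in liver PC, with overlapping intervals, at 24.1 in the library labelled liver TIL, at 0.532 and 0.446 in heart and liver PBMC (4 and 3 UMIs), and had 0 UMIs in the 3 kidney libraries. Ighg2b lay at 627 CPM in the library labelled liver TIL, 189 in the library labelled heart TIL, 144 in liver PC, 52.1 in kidney TIL, 14.4 in liver PBMC, 2.39 in heart PBMC and 0.878 in kidney PC, with 0 UMIs in kidney PBMC. Both genes were thus highest in graft libraries, though not in the same one. Ighg2c lay at 842 CPM in the library labelled liver TIL, 203 in liver PC and 82.1 in the library labelled heart TIL, then at 11.4 in kidney PC, 0.891 in liver PBMC and 0.399 in heart PBMC, with 0 UMIs in kidney PBMC and kidney TIL. Ighg3 lay at 152 CPM in the library labelled heart TIL and 142 in liver PC, with overlapping intervals, at 6.20 in the library labelled liver TIL, and between 0 and 2.63 in the other 5. The library labelled liver TIL was therefore first for Ighg2b and Ighg2c and behind the other 2 plasma-cell-rich libraries for Ighg1 and Ighg3. In kidney TIL, 63 of the 205 Ighg2b UMIs (30.7%) lay in 1 barcode with fewer than 500 UMIs, and in the library labelled liver TIL, 76 of the 206 Ighg1 UMIs (36.9%) lay in 1 cell outside the plasma, B and T classes.

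**Figure D1:**
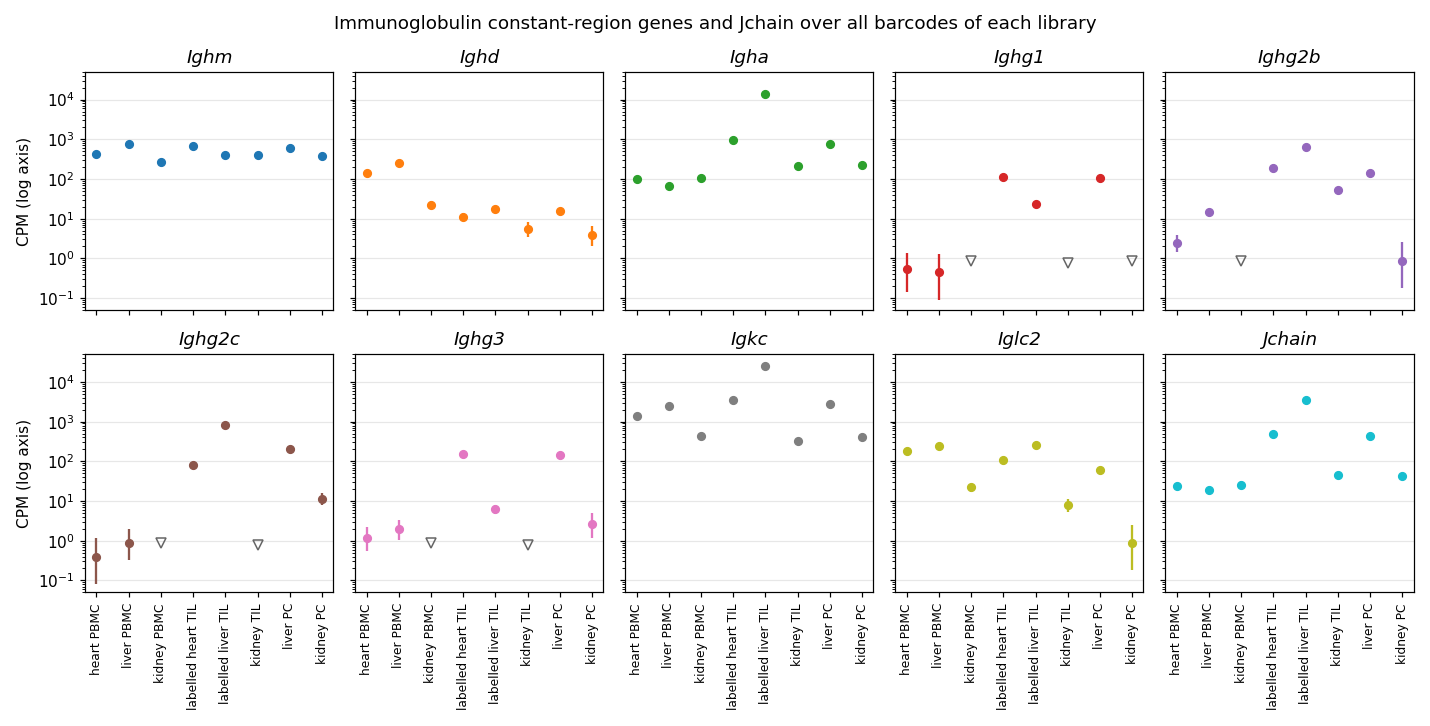
CPM of the 10 genes over all barcodes of each of the 8 libraries (log axis). Points are library values with exact 95% Poisson intervals, often smaller than the point, and open triangles mark 0 UMIs, drawn at the level of 3 UMIs. Igha, Ighg2b, Ighg2c, Igkc and Jchain peak in the library labelled liver TIL, Ighd in liver PBMC.

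Igkc, the single constant gene of kappa chains, had the most UMIs of the 10 in each library but kidney TIL, where Ighm had more. It lay at 24767 CPM in the library labelled liver TIL, 3513 in the library labelled heart TIL, 2854 in liver PC, 2552 in liver PBMC, 1423 in heart PBMC, 443 in kidney PBMC, 409 in kidney PC and 331 in kidney TIL. Iglc2, a lambda gene, lay at 258 CPM in the library labelled liver TIL and 248 in liver PBMC, with overlapping intervals, then at 183 in heart PBMC, 107 in the library labelled heart TIL, 59.7 in liver PC, 22.0 in kidney PBMC, 7.88 in kidney TIL and 0.878 in kidney PC. Iglc2 in liver PBMC thus matched the highest graft library within its interval, whereas Igkc in blood stood below 3 graft libraries. Jchain, whose product joins IgM and IgA, lay at 3508 CPM in the library labelled liver TIL, 487 in the library labelled heart TIL and 426 in liver PC, then between 19.0 and 45.0 in the 5 others. Fewer plasma cells and less RNA per plasma cell cannot be told apart in such sums over a whole library.

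In plasma cells the 10 genes together took 27.5% of all UMIs in the library labelled liver TIL, 20.2% in the library labelled heart TIL and 16.8% in liver PC. The median cell gave them 30.4%, 21.2% and 17.0%, and the highest single cell 63.4%, 51.3% and 55.0%. B cells of heart PBMC, liver PBMC and liver PC gave them 0.892%, 1.01% and 0.887%. Plasma cells, though few, held 33.9%, 35.9% and 43.0% of all member UMIs in the 3 libraries.

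By the plasma-cell sums, the isotypes differed most in the library labelled liver TIL. Igha reached 92195 CPM there (95% interval 91323 to 93074), against 37697 in the library labelled heart TIL and 26081 in liver PC. Ighm was lowest there, at 3042 CPM (2885 to 3205), against 18757 and 16721. Ighg1 had 2 UMIs in its 417 plasma cells (4.32 CPM), against 4380 and 3916 CPM in the other pair, and Ighg3 stood at 45.3 CPM against 3460 and 5283 CPM. Ighm, Ighg1 and Ighg3 were thus lowest in the plasma cells of that library. Ighg2b was close in all 3, at 5059, 7486 and 5066 CPM in the order labelled liver TIL, labelled heart TIL and liver PC. Ighg2c lay at 6380, 2645 and 7661 CPM in the same order. Ighd was all but absent from plasma cells, with 4, 0 and 3 UMIs. Igkc lay at 137649, 101675 and 81812 CPM, Iglc2 at 2280, 3920 and 2062 CPM, and Jchain at 28538, 21825 and 19401 CPM. The light chains and Jchain thus varied less between the 3 libraries than Igha and Ighm did.

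Set against T cells of the same library, a gene counted as higher when its CPM + 1 was at least 2-fold higher, with at least 10 UMIs over both sums. In the library labelled heart TIL 9 of 10 members were higher in plasma cells, where 9.66% of 11010 genes were, in liver PC 9 of 10, where 8.06% were, and in the library labelled liver TIL 8 of 10, where 3.81% were. The median log2 ratio of the members was 6.01, 6.04 and 3.54, against -0.74, -0.55 and -0.51 over all genes. The exceptions were Ighd in all 3 libraries and Ighg1 in the library labelled liver TIL, whose 4.32 CPM lay below the 14.8 CPM of T cells. Jchain was part of the plasma-cell gate, so its own ratio, 15.9 to 114-fold, is a description of that choice. It is also 1 of the members counted as higher in each library and enters the medians, so that its part in both was set by the gate.

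Between plasma cells of the libraries labelled liver TIL and heart TIL, 9 members could be compared. Igha was 2.45-fold higher (95% interval 2.37 to 2.53) and Ighg2c 2.41-fold higher (2.13 to 2.74) in the library labelled liver TIL, so that 2 of 9 passed, where 14% of 4693 genes did. Ighm, Ighg3 and Ighg1 were lower, at ratios of 0.162 (0.151 to 0.174), 0.0131 (0.00801 to 0.0203) and 0.000986 (0.000119 to 0.00358), so that 3 of 9 passed, where 9.84% did. The other 4, Ighg2b, Igkc, Iglc2 and Jchain, differed by less than 2-fold. In plasma cells of liver PC, Ighg2c was 2.90-fold higher than in the library labelled heart TIL (2.55 to 3.30). Ighm, Igha, Ighg1 and Jchain stood at 0.891, 0.692, 0.894 and 0.889 of the level in the library labelled heart TIL.

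Most plasma cells held UMIs of 1 isotype nearly alone. A cell was given the heavy-chain gene with the most UMIs when it held at least 3 heavy-chain UMIs, which gave a call for 84 of 85, 414 of 417 and 105 of 105 cells in the libraries labelled heart TIL and liver TIL and in liver PC. The leading gene held a median of 98.7%, 98.99% and 98.7% of a cell's heavy-chain UMIs, and at least 90% in 79, 379 and 92 cells, while the lowest share was 76.9%, 47.4% and 53.3%. The median cell held 82.5, 113.5 and 154 heavy-chain UMIs.

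IgA was the leading isotype of 361 of 414 plasma cells in the library labelled liver TIL (87.2%, 83.6 to 90.3), of 38 of 84 in the library labelled heart TIL (45.2%, 34.3 to 56.5) and of 35 of 105 in liver PC (33.3%, 24.4 to 43.2). Without barcodes shared between libraries these shares were 88.0%, 45.9% and 34.3%. The difference between the first and the second was 42.0 percentage points (30.8 to 52.6), and between the first and liver PC 53.9 points (43.8 to 62.6). Liver PC and the library labelled heart TIL differed by -11.9 points with an interval of -25.4 to 2.01, which holds 0. IgM led in 8 cells (1.93%, 0.838 to 3.77), 23 cells (27.4%, 18.2 to 38.2) and 31 cells (29.5%, 21.02 to 39.2) in the same order. IgM was therefore rare among plasma cells labelled liver TIL and a large class in the others. These intervals count cells of 1 library each and do not test a difference between groups. The shares also depend on a gate that needs Jchain. With a gate on Mzb1, Derl3 and Xbp1 alone, the library labelled heart TIL held 19 IgA, 19 IgG and 15 IgM cells. Of these, 0, 3 and 2 held fewer than 5 Jchain UMIs. In liver PC 2 of 30, 0 of 35 and 2 of 23 did, and in the library labelled liver TIL 6 of 202, 1 of 26 and 0 of 6.

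IgG led in 45 cells of the library labelled liver TIL (10.9%, 8.04 to 14.3), 23 of the library labelled heart TIL (27.4%, 18.2 to 38.2) and 39 of liver PC (37.1%, 27.9 to 47.1). All 4 subclasses were present in the library labelled heart TIL, with 7 Ighg1, 7 Ighg2b, 4 Ighg2c and 5 Ighg3 cells, and in liver PC, with 7, 8, 14 and 10. The library labelled liver TIL held 16 Ighg2b and 29 Ighg2c cells and 0 of 414 cells led by Ighg1 or by Ighg3, where 3 counts, the limit that a count of 0 allows, would be 0.725% for each. Outside the gate that library held 144 further cells with at least 50 light-chain UMIs, among them the cell named above with 76 Ighg1, 84 Igkc and 7 Jchain UMIs, so that the 0 holds for gated cells only. No plasma cell was led by Ighd. The 7 plasma cells of the PBMC libraries and of kidney TIL were all led by Igha, with 96.2% to 100% of heavy-chain UMIs, and are too few for a share.

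**Figure D2:**
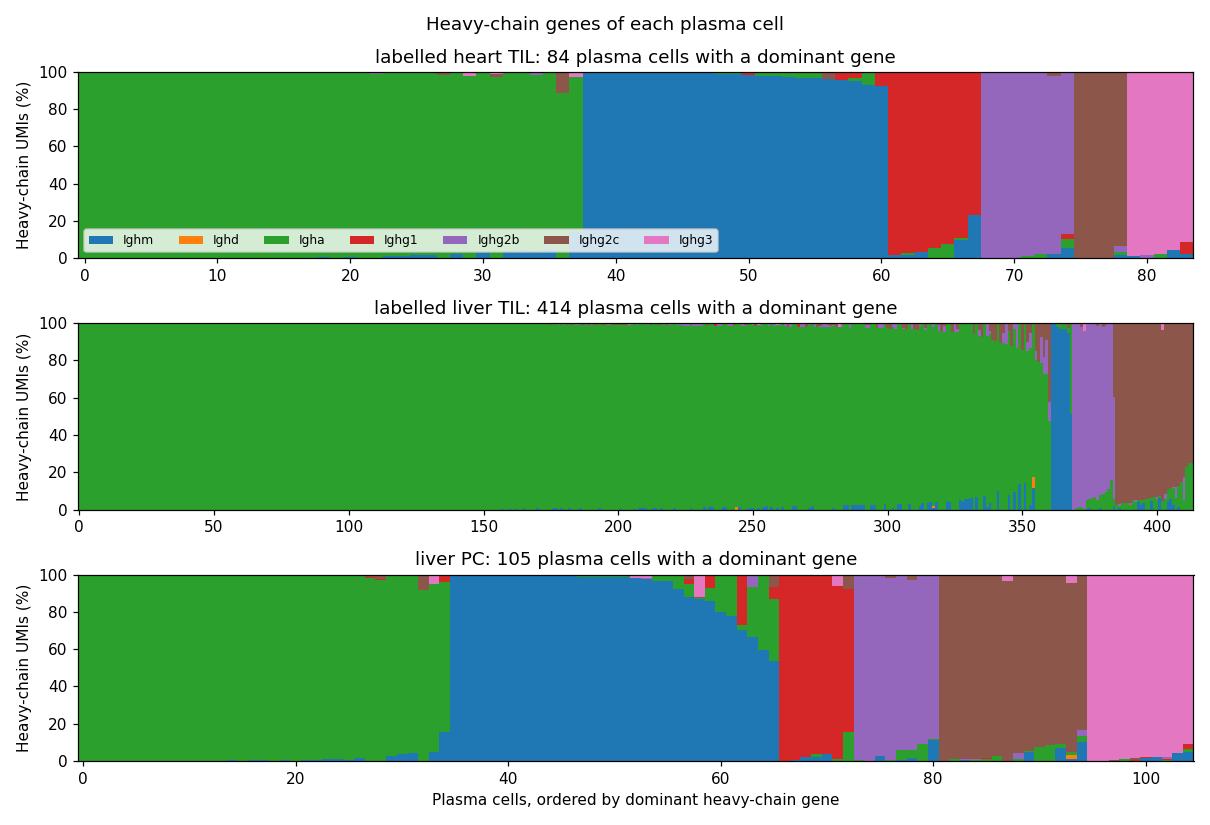
Heavy-chain make-up of each plasma cell with a leading gene. Each column is 1 cell, its colours give the percent of its heavy-chain UMIs from each gene, and cells are ordered by leading gene. Nearly every column is of 1 colour, and Igha fills 361 of 414 columns in the library labelled liver TIL against 38 of 84 and 35 of 105 in the others.

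UMIs of a second isotype in Igha-led and Ighm-led plasma cells were compared with the number that the T-cell level of the library would give. In 25 of 36 pairs of a leading and a second gene that number lay within the Poisson interval of the count, in 10 the count was above it and in 1 below it. In IgA plasma cells of the library labelled liver TIL, 177 Ighm UMIs were seen where the T-cell level would give 103, and 153 Ighg2c UMIs, the 1 count below, where it would give 193. That T-cell level leans on 1 T-gated barcode with 178 of the 1492 Ighg2c UMIs, and the number without it was not computed. In the 8 Ighm-led plasma cells of the same library 195 Igha UMIs were seen against 96.6, and 171 of the 195 lay in 1 cell with 181 Ighm UMIs. Another plasma cell of the library labelled liver TIL held 142 Ighg2b and 103 Ighg2c UMIs. In Ighm-led plasma cells of liver PC, 55 Igha UMIs were seen against 34.4, 17 Ighg1 UMIs against 4.53 and 31 Ighg3 UMIs against 6.29, with 24 of the 31 in 1 cell. In IgA plasma cells of liver PC 34 Ighg2c UMIs were seen against 8.19. Whether such a barcode holds 1 cell or more was not tested.

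Jchain, which the gate required at 5 UMIs or more, still varied with the isotype. In the library labelled heart TIL it lay at 31047 CPM in IgA, 18705 in IgM and 12667 in IgG plasma cells. In liver PC it lay at 27592, 18951 and 12661 CPM. In the library labelled liver TIL it lay at 29858, 33219 and 18024 CPM, with only 8 IgM cells. IgG cells were thus lowest in each library, while the order of IgA and IgM was not the same. The ratio of IgA to IgG was 2.45 (2.19 to 2.74), 1.66 (1.55 to 1.77) and 2.18 (2.03 to 2.34) in the libraries labelled heart TIL and liver TIL and in liver PC, and that of IgM to IgG was 1.48, 1.84 and 1.50. Set against heavy-chain molecules in place of all UMIs, IgG cells held 0.219, 0.184 and 0.207 Jchain UMIs per heavy-chain UMI, IgA cells 0.334, 0.276 and 0.336, and IgM cells 0.276, 0.301 and 0.365. With a gate that left out Jchain (at least 3 UMIs of Mzb1 and Derl3 and at least 1 of Xbp1), applied to Jchain after the data were seen, IgG cells were again lowest, at 10844, 19874 and 13527 CPM, against 33340, 31850 and 28306 CPM in IgA cells. At the threshold, the library labelled liver TIL held 21 cells with 4 Jchain UMIs and 16 with 5, both with a median of 18 heavy-chain UMIs.

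**Figure D3:**
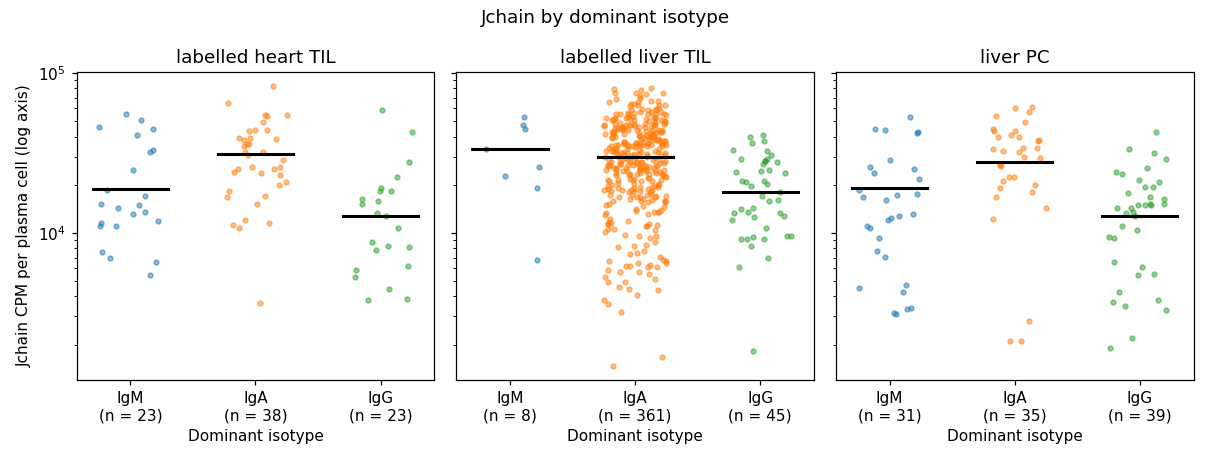
Jchain CPM of single plasma cells (log axis) by leading isotype in the 3 libraries with at least 20 plasma cells. Points are cells, spread sideways at random, and black lines give the CPM of the summed cells. The IgG line is lowest in each panel, at 12667, 18024 and 12661 CPM, and the spread of cells overlaps between isotypes.

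Homing genes were set beside the isotypes. Ccr10, a chemokine receptor by which IgA-secreting cells home to epithelia, had 42 UMIs in 361 IgA cells and 1 in the 53 others of the library labelled liver TIL, a CPM ratio of 7.10 (1.21 to 287). It had 6 UMIs in IgA cells against 2 in others in liver PC, and 5 against 0 in the library labelled heart TIL. Cxcr3, a receptor for interferon-induced chemokines, and Itgb7, an integrin chain of gut homing, had ratios with intervals that hold 1 in each of the 3 libraries. The summed CPM of 10 cycle genes in IgM, IgA and IgG cells was 2612, 1811 and 1775 in the library labelled heart TIL, 1954, 1817 and 1802 in the library labelled liver TIL and 3076, 2652 and 3823 in liver PC. By these values IgM lay above IgA in each of the 3, while the place of IgG was not the same. The sums are given without intervals and rest on 23, 8 and 31 IgM cells. Whether IgM and IgA differ beyond counting error is therefore not shown.

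Nearly all plasma cells used kappa. Lambda UMIs (Iglc1, Iglc2 and Iglc3 together) exceeded Igkc in 2 of 85 plasma cells labelled heart TIL (2.35%, 0.286 to 8.24), 4 of 417 labelled liver TIL (0.959%, 0.262 to 2.44) and 2 of 105 in liver PC (1.90%, 0.232 to 6.71). Igkc made up 91.3%, 96.7% and 92.8% of light-chain UMIs in the same order. In 6 of these 8 lambda cells Igkc stood at 2 to 9 UMIs beside 115 to 236 UMIs of the leading lambda gene, such as 226 UMIs of Iglc2 with 2 of Iglc3. The other 2 held both kinds in quantity, 333 Iglc1 with 276 Igkc UMIs in the library labelled liver TIL, and 186 Iglc3 with 197 Igkc UMIs in liver PC. Among kappa plasma cells lambda UMIs made up a median of 3.33%, 1.30% and 3.45% of a cell's light-chain UMIs, yet 2, 2 and 4 cells held at least 10 lambda UMIs at 20% or more. Lambda in these kappa-led cells lay at 5970, 2856 and 4790 CPM, 32.1, 7.70 and 54.6 times the T-cell level, and 90.4%, 77.5% and 89.3% of them held a lambda UMI. Igkc in the same cells stood at 42.6, 8.51 and 45.4 times its T-cell level. Lambda in kappa-led plasma cells thus stood well above the T-cell level, and its source was not tested.

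In B cells lambda was more common. It led in 33 of 240 B cells with a call in heart PBMC (13.8%, 9.66 to 18.8), 31 of 408 in liver PBMC (7.60%, 5.22 to 10.6) and 10 of 91 in liver PC (10.99%, 5.40 to 19.3). By the same call lambda led in 10.7% (4.03 to 21.9), 0% (0 to 12.3) and 0.215% (0.0864 to 0.442) of their T cells. In the PBMC libraries the intervals of B and T cells overlap. T cells held 23.0%, 12.2% and 4.58% of their light-chain UMIs as lambda. In B cells the lambda share of light-chain UMIs was 31.3%, 23.1% and 22.9%, larger than the share of cells. Of the lambda UMIs, 442 of 785, 616 of 931 and 207 of 298 lay in B cells led by kappa, in which lambda lay at 2349, 1847 and 1196 CPM, 9.48, 12.6 and 13.6 times the T-cell level of the same library. Of those cells 80.2%, 71.6% and 67.9% held a lambda UMI. Without cells holding a Cd3 UMI these levels were 2701, 2000 and 2257 CPM. Lambda in kappa-led B cells thus stood above the T-cell level too, and its source was not tested either. A call needed at least 3 light-chain UMIs, so that single UMIs weigh heavily in B cells.

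B cells of blood held the members of naive cells at levels less than 2-fold apart in heart and liver recipients. Of the ratios of liver over heart given here, only that of Ighd has an interval that holds 1. Ighm lay at 1704 CPM in heart PBMC and 1924 in liver PBMC, a ratio of 1.13 (1.02 to 1.26) for liver over heart. Ighd lay at 799 and 754 CPM, a ratio of 0.945 (0.803 to 1.11). Igkc lay at 5248 and 6482 CPM, a ratio of 1.24 (1.16 to 1.31), and Iglc2 at 1088 and 840 CPM, a ratio of 0.772 (0.668 to 0.893). B cells of liver PC held 1544 CPM of Ighm, 425 of Ighd, 4831 of Igkc and 651 of Iglc2, and in addition 521 CPM of Igha, 256 of Ighg2b and 227 of Jchain, where those of liver PBMC held 48.1, 56.4 and 8.36 CPM and T cells of liver PC held 413, 80.7 and 171 CPM. Ighg1 lay at 208 CPM in B cells of liver PC, against 2.09 in those of liver PBMC and 54.5 in T cells of liver PC. Igha and Jchain in these B cells were thus at 1.26 and 1.33 times the T-cell level of the same library, less than the ratios of Ighg1 and Ighg2b. The summed T-cell markers in these B cells of liver PC reached 5511 CPM, and their part in the values was not tested.

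In B cells of heart and liver PBMC, Ighm and Ighd made up nearly all heavy-chain transcripts. In heart PBMC, Ighm gave 66.2% of heavy-chain UMIs, Ighd 31.0% and the switched genes 2.84%. In liver PBMC the shares were 68.9%, 27.0% and 4.11%. In liver PC they were 48.9%, 13.5% and 37.6%, beside 63.7% switched UMIs in T cells of that library. Heavy-chain UMIs of B cells in heart and liver PBMC were therefore nearly all unswitched. T cells of these libraries held 12.1% (8.28 to 17.0) and 4.55% (1.25 to 11.2) switched UMIs. In liver PBMC the T-cell interval thus holds the B-cell share. How much of the switched share in B cells of liver PC came from free RNA, from other cells in a barcode or from the B cells themselves was not tested.

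The number of Ighd UMIs per Ighm UMI in B cells was 0.469 in heart PBMC (0.403 to 0.544), 0.392 in liver PBMC (0.346 to 0.443) and 0.275 in liver PC (0.215 to 0.349). In T cells it was 0.186 (0.124 to 0.272), 0.313 (0.179 to 0.523) and 0.0228 (0.0187 to 0.0274). The intervals of the blood libraries overlap, and that of liver PC overlaps with liver PBMC at its upper end. Without barcodes shared between libraries the B-cell values were 0.456, 0.418 and 0.318. In plasma cells of liver PC the ratio was 0.000693, so that Ighd marked B cells and Ighm marked both classes. After each cell was thinned to 500 UMIs, 29.6%, 28.0% and 22.4% of B cells held an Ighd UMI, against 3.46%, 5.13% and 0.531% of T cells, and 48.1%, 54.4% and 53.1% held an Ighm UMI, against 16.3%, 15.4% and 19.0%. Before thinning, Ighd was found in 40.9%, 38.1% and 41.8% of B cells at median depths of 810, 710.5 and 1627.5 UMIs.

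Called by the leading gene, 95 of 126 B cells of heart PBMC were Ighm cells, 30 Ighd and 1 Ighg2b. In liver PBMC 146 of 178 were Ighm cells, 31 Ighd and 1 Ighg2b. In liver PC 43 of 67 were Ighm cells, 8 Ighd, 9 Igha, 3 Ighg1, 3 Ighg2b and 1 Ighg3. Of the 98 B cells of liver PC, 57 held at least 2 Cd3 UMIs. The 1 Ighg2b cell of liver PBMC held 21 of the 27 Ighg2b UMIs of its B cells. In kidney PBMC 1 of 3 B-gated cells held all 77 Igha UMIs with 155 Igkc and 16 Jchain UMIs.

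**Figure D4:**
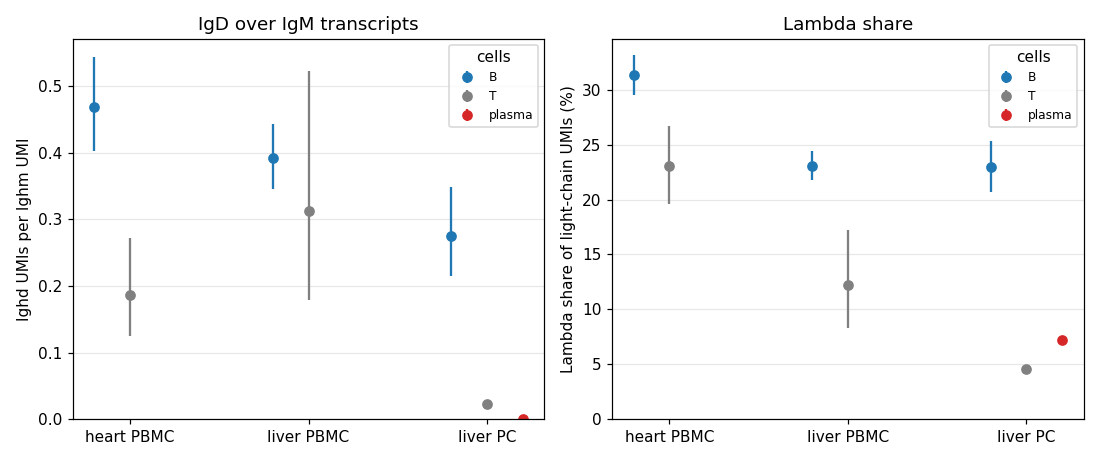
Left, Ighd UMIs per Ighm UMI, and right, lambda percent of light-chain UMIs, in B, T and plasma cells of the 3 libraries with at least 20 B cells, with exact 95% intervals. B cells lie at 0.469, 0.392 and 0.275 on the left and at 31.3%, 23.1% and 22.9% on the right. Plasma cells are shown for liver PC only.

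By the rule of size 4 of 6 members with enough UMIs were higher in B than in T cells of heart PBMC, where 6.01% of 5876 genes were, 6 of 6 in liver PBMC, where 12.1% were, and 6 of 10 in liver PC, where 9.11% were. The median log2 ratio of the members was 2.502, 2.73 and 1.53, against -0.13, -0.09 and -0.14 over all genes. By member, the B to T ratio was 12.8, 7.23 and 46.3 for Ighd, 5.09, 5.76 and 3.83 for Ighm, 6.33, 6.18 and 2.64 for Igkc, and 12.8, 23.0 and 25.9 for Iglc2. In liver PC Ighg1 and Ighg2b were also among the 6, at B to T ratios of 3.81 and 3.17. Jchain did not separate the classes, at 1.07, 0.534 and 1.33, with 4 UMIs in each blood library. Cells that passed the plasma-cell gate, which needs Jchain, entered neither class. Of those cells 0, 0 and 25 held at least 2 UMIs of Cd79a, Cd79b and Ms4a1 together, so that in liver PC the Jchain level of B cells depends on the gate. Between B cells of liver and heart PBMC, 1 of 6 members, Ighg2b, was higher in liver, where 15.6% of 5985 genes were, and 0 of 6 were lower, where 5.73% were. That 1 call rests on the single cell with 21 UMIs.

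T-cell levels were used as a measure of antibody RNA outside its makers. This class also held 4, 32 and 8 cells with at least 50 light-chain UMIs in the libraries labelled heart TIL and liver TIL and in liver PC. Cells without a UMI of Cd79a, Cd79b, Ms4a1, the Cd3 genes, Mzb1 or Derl3 gave a second measure. Their Ighm, Igkc and Iglc2 stood at 1.56, 1.61 and 3.70 times the T-cell level in liver PBMC, where T cells held 7 Iglc2 UMIs. The ratios were 0.886, 1.21 and 1.31 in heart PBMC and 0.396, 0.510 and 0.591 in liver PC. Against these cells the B-cell ratios of these genes would be smaller in liver PBMC and larger in liver PC. In the library labelled liver TIL a T cell held a median of 14 Igkc UMIs and 6 Igha UMIs, and after thinning to 500 UMIs 97.0% of T cells held an Igkc UMI and 90.2% an Igha UMI, against 99.5% and 96.9% of plasma cells. The median T cell gave 2.69% of its UMIs to the 10 genes. In the library labelled heart TIL and in liver PC the median was 0.347% and 0.249%. Relative to plasma cells, T-cell CPM stood at 5.60% (Iglc2) to 11.8% (Igkc) in the library labelled liver TIL, leaving out Ighd and Ighg1, at 1.14% (Jchain) to 3.37% (Ighg3) in the library labelled heart TIL and at 0.880% (Jchain) to 2.41% (Ighm) in liver PC, leaving out Ighd. The value for Ighg3 leans on 1 T-gated barcode, which held 123 of the 573 Ighg3 UMIs in T cells of the library labelled heart TIL. For Igkc and Igha nearly every T and every plasma cell of the library labelled liver TIL thus held a UMI, while for Jchain the thinned shares were 56.5% and 99.5% and for Iglc2 6.47% and 33.6%.

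For Igha against Igkc, the library labelled liver TIL was highest among the libraries rich in plasma cells, in T cells as in plasma cells. Igha UMIs per Igkc UMI were 0.483 in T cells and 0.670 in plasma cells of the library labelled liver TIL, 0.235 and 0.371 in the library labelled heart TIL, and 0.226 and 0.319 in liver PC. The T-cell intervals of the library labelled heart TIL (0.225 to 0.244) and of liver PC (0.219 to 0.233) overlap. T cells of kidney TIL stood higher, at 0.797 (0.634 to 0.9995), with 94 of their 141 Igha UMIs in 1 barcode. Those of kidney PC stood at 0.643 (0.381 to 1.07), an interval that holds the value of the library labelled liver TIL. Jchain UMIs per Igkc UMI were 0.110, 0.103 and 0.0933 in T cells, and the plasma-cell values of 0.207, 0.215 and 0.237 follow in part from the gate on Jchain. Kidney differed. There the T cells held 2.94 Ighm UMIs per Igkc UMI in PBMC (1.98 to 4.48), 2.02 in TIL (1.68 to 2.44) and 1.79 in PC (1.21 to 2.67), against 0.0161 to 0.404 in the 5 libraries of heart and liver. In kidney TIL 1 T-gated barcode held 94 of the 177 Igkc UMIs, and without it the ratio was 4.31. Among T cells, Ighm thus exceeded Igkc in kidney libraries only. In the cells of the second measure above, the ratio was 3.08 (2.12 to 4.56) in kidney TIL and 1.77 (1.12 to 2.85) in kidney PC. In kidney PBMC it was 0.964 (0.651 to 1.43). The source of these UMIs was not tested. T-cell Ighm lay at 232, 499 and 389 CPM in kidney PBMC, TIL and PC, against 261 to 513 CPM in the libraries of heart and liver. The kidney libraries held few gated B or plasma cells, and how far T-cell Ighm measures free RNA was not tested.

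**Figure D5:**
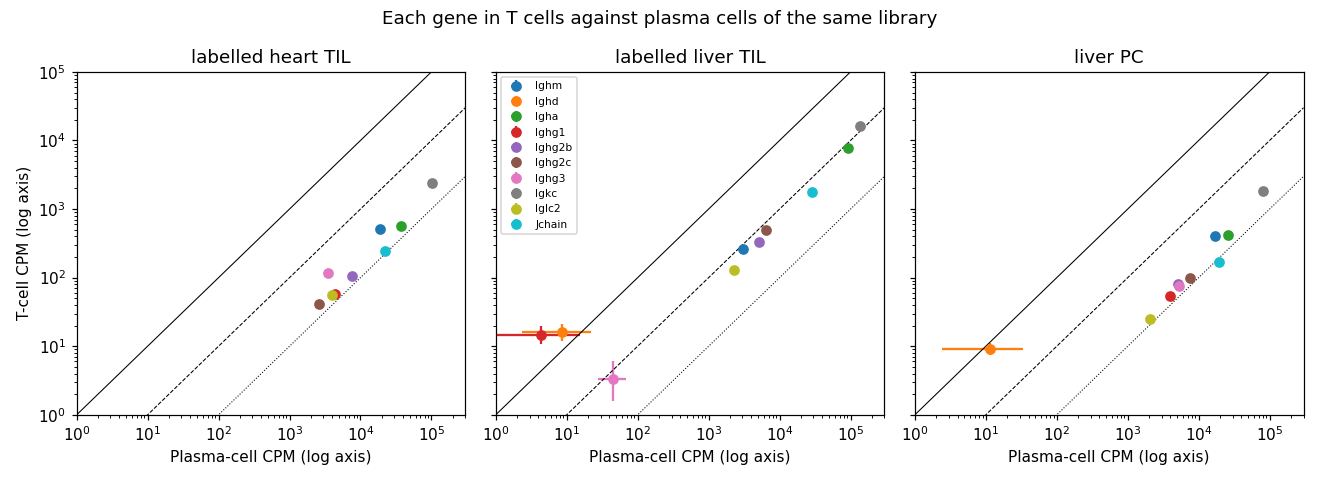
CPM of each of the 10 genes in T cells against plasma cells of the same library (log axes), with exact 95% Poisson intervals. Lines mark equality (solid), 10% (dashed) and 1% (dotted) of the plasma-cell level, and genes with 0 UMIs in either class are not drawn. Most genes lie near the dashed line in the library labelled liver TIL and near the dotted line in the others.

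Other genes of the pathway were followed by lists. Of the other immunoglobulin constant genes 2 had enough UMIs, Iglc1 and Iglc3, and both were higher in plasma than in T cells and in B than in T cells in each library compared. Of the plasma-cell regulators with enough UMIs, 5 of 7, 6 of 7 and 5 of 8 were higher in plasma than in T cells in the libraries labelled heart TIL and liver TIL and in liver PC, where 9.66%, 3.81% and 8.06% of all genes were, with medians of 2.11, 1.91 and 2.02 on the log2 scale. Without Xbp1, which was in the gate, the counts were 4 of 6, 5 of 6 and 4 of 7. They included Pou2af1, a co-activator of immunoglobulin promoters, at 153, 171 and 479 CPM, against 5.70, 17.1 and 11.99 CPM in T cells. Ell2, which favours the secreted form of the heavy chain, lay at 60.5 CPM in the library labelled liver TIL and 77.2 in liver PC, against 8.55 and 7.16 in T cells. Cd79a and Cd79b, which carry the signal of the B cell receptor, are at 0 in T cells by the gate and were left out of the counts for its partners. The others were higher in B than in T cells for 6 of 7, 8 of 8 and 6 of 7 genes in heart PBMC, liver PBMC and liver PC, where 6.01%, 12.1% and 9.11% of all genes were. In plasma cells 2 of 5, 2 of 5 and 3 of 6 were higher, among them Blnk, an adaptor of B cell receptor signalling, at 110 CPM against 9.86 in the library labelled liver TIL and 135 against 2.58 in liver PC.

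For the remaining lists in plasma cells the shares over all genes are again 9.66%, 3.81% and 8.06%. Class-switch and germinal-centre genes were higher in plasma than in T cells for 0 of 6, 0 of 6 and 0 of 7, and cycle genes for 0 of 10 in each library. Of 10 homing genes 2, 1 and 1 were higher, among them Ccr10, at 92.8 CPM against 5.59 in the library labelled liver TIL. Receptors and transporters of antibody were higher for 0 of 8, 0 of 7 and 1 of 8 genes. In B cells of heart PBMC, liver PBMC and liver PC, where 6.01%, 12.1% and 9.11% of all genes were higher than in T cells, 3 of 7, 3 of 8 and 1 of 8 were, among them Fcmr, the receptor for IgM, at 265, 320 and 154 CPM against 36.0, 47.0 and 2.82 CPM, and Fcer2a, the low-affinity receptor for IgE, at 45.7 and 77.3 CPM in the PBMC libraries against 5.68 and 10.4 CPM. Of the plasma-cell regulators other than Xbp1, 1 of 1, 2 of 3 and 2 of 7 were higher in B cells, of the class-switch and germinal-centre genes 0 of 3, 0 of 3 and 1 of 7, of the homing genes 1 of 8, 1 of 8 and 2 of 10, and of the cycle genes 0 of 9, 0 of 9 and 0 of 10. Ighe, the heavy-chain gene of IgE, had no row in any of the 8 libraries, so that 0 UMIs cannot be told apart from a gene that was not counted.

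Genes with the most similar pattern were sought over 14 sums of B, plasma or T cells, among 11094 genes, as the highest Pearson correlation of log2(CPM + 1). The points share libraries and depth, and the classes were set by genes that include Jchain, Mzb1, Derl3 and Xbp1, so that the match of Igha with Jchain, the list of Jchain and Mzb1 in the list of Ighm draw on the gate. The correlations are descriptions. For Jchain they were Pycr1 (0.954), Hspa5 (0.948), Manf (0.945), Prg2 (0.941) and Creld2 (0.940), and for Igha they were Jchain itself (0.982), Pon3 (0.943), Creld2 (0.943), Hspa5 (0.932) and Pycr1 (0.931). Hspa5, Manf and Creld2 act in protein folding in the endoplasmic reticulum. For Ighm they were Rasgrp3 (0.936), Tnfrsf13b (0.933), Zfp706 (0.910), St6gal1 (0.887) and Mzb1 (0.856), of which Tnfrsf13b encodes a receptor for B cell survival factors. The genes most like Jchain and Igha thus overlapped in 3 names, and the list of Ighm shared 0 with them.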

How the data were processed

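Tables for 8 libraries, 1 per group, held raw UMI counts per gene and barcode, as the authors deposited them. Per the study's methods, the authors ran Drop-seq core tools and STAR on GRCm38. Reads with several alignments were dropped, and UMIs within 1 edit of each other were collapsed. Genes were tagged with GENCODE annotation files. Samples were grouped by organ and compartment from the labels.

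For each class (plasma, B or T, by the gates in the text) the UMIs of a gene were added up and expressed as CPM of the class total, with exact Poisson intervals. Shares have exact binomial (Clopper-Pearson) intervals, and ratios have intervals conditional on the summed count. The rule of size used a pseudocount of 1 CPM. Shares of cells with a UMI were taken after thinning to 500 UMIs with seed 0. No filter on mitochondrial UMIs was applied. The 10 members are all named; pathway genes are named from fixed lists where a plasma or B cell sum held at least 10 UMIs, and the most similar genes are the 5 highest outside the immunoglobulin family. The members and the lists were chosen with earlier results of these data known. The rule of size and the correlations were tested on simulated data. Sequences were read from GENCODE M21. Computation ran in Python 3.11.15, with scipy 1.17.1, numpy 2.4.6, matplotlib 3.10.9 and pandas 2.3.3. Library depth was 3418722 to 19171264 UMIs. Alternatives to the gates, depth and free RNA are given in the closing section.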

Additional observations from a re-analysis of the deposited data

How the results depend on the processing

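The isotype shares of plasma cells moved by less than their intervals in 98 of 99 cases. Some alternatives could not move them. A limit of 10% mitochondrial UMIs could remove no cell, since 0 cells in the libraries labelled heart TIL and liver TIL and in liver PC lay above it. A lower minimum depth could add no cell in liver PC, which held 0 barcodes below the minimum. Such cases stay the same by construction, here and in the IgA difference below, and are no check. Over all alternatives the IgA share lay between 84.8% and 88.0% in the library labelled liver TIL, 35.8% and 51.4% in the library labelled heart TIL, and 33.0% and 41.5% in liver PC. The exception was IgM in the library labelled heart TIL, which became 39.3% (11 of 28 cells) without plasma cells holding a Cd3 UMI. When the labels of the TIL libraries of heart and liver were exchanged, the IgA difference became -41.96 percentage points, by construction. In the other 11 of 12 cases the difference stayed within its interval of 30.8 to 52.6 points.

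Ighd UMIs per Ighm UMI moved in 4 of 21 cases. A limit of 10% mitochondrial UMIs could not move this ratio, since 0 cells of heart PBMC, liver PBMC and liver PC lay above the limit. With at least 1000 UMIs per cell the value was 0.395 in heart PBMC and 0.297 in liver PBMC, with a B gate of 3 UMIs 0.333 in liver PBMC, and with the T-cell level subtracted 0.364 in liver PC. The Igkc share of light-chain UMIs moved in 7 of 18 cases. The limit on mitochondrial UMIs could not move this share either. With at least 1000 UMIs it was 93.9% in the library labelled heart TIL and 92.4% in liver PC, with the gate without Jchain 94.2%, 95.9% and 92.3% in the libraries labelled heart TIL and liver TIL and in liver PC, and in the library labelled liver TIL 96.5% both without shared barcodes and with the T-cell level subtracted. Ighm UMIs per Igkc UMI in T cells of kidney TIL became 4.31 without the barcode with most Igkc UMIs, and moved less in kidney PBMC and PC. The cause was not tested, apart from that barcode. Scaling to UMIs outside immunoglobulin genes and Jchain moved 25 of 60 member levels beyond their intervals. The gate without Jchain moved 6 of 9 Jchain levels by isotype. That gate for Jchain, a gate of at least 100 light-chain UMIs and the removal of that barcode were chosen after the data were seen.

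No paired analysis was possible because each group is 1 library. For the same reason no library could be left out, differences between libraries have no replicate check, and animal, digestion and library cannot be told apart from organ and compartment. With 85 and 105 plasma cells, shares in the library labelled heart TIL and in liver PC have intervals of about 20 percentage points, and 0 to 3 plasma cells elsewhere give no share.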

Other observations

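Barcodes with fewer than 500 UMIs, which enter no class above, also held concentrated antibody RNA. In the library labelled liver TIL, 47 of 663 such barcodes gave at least 20% of their UMIs to the 10 genes, and 46 of these were led by Igha and 1 by an IgG gene. In kidney TIL there were 4 of 7995, with 2 led by Igha and 2 by an IgG gene, and in kidney PC 3 of 9205, all led by Igha. The library labelled heart TIL held 2, heart PBMC 1, and liver and kidney PBMC 0, while liver PC had no barcode under this depth. The highest share was 65.4% in the library labelled liver TIL, 59.9% in kidney TIL, 53.9% in the library labelled heart TIL and 43.1% in kidney PC. The kidney libraries, with 1 and 0 plasma cells by the gate, thus held a few barcodes of this kind below the minimum depth.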
